A study of Mus musculus with 36 samples.

Results

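The regions described here are the intergenic binding sites of CLOCK:BMAL1 that lie within 10 kb of a gene, a class that the authors' peak list of mouse liver labels by genomic location. They make up 9.14% of the list. The other classes hold 2923 peaks, of which 583 lie at transcription start sites (TSS), 1623 in gene bodies and 717 in intergenic sequence beyond 10 kb. The H2A.Z profile of the class was contained in the authors' profile over all 3216 peaks that the signal table counts. It was solved for each library by subtracting the profiles of the other classes, each weighted by its number of peaks.

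H2A.Z nucleosomes were profiled in livers of adult C57BL/6 mice aged 3-6 months, held under 12 h of light and 12 h of dark for at least 2 weeks. The time of collection is given as zeitgeber time (ZT, hours after lights on), every 4 h from ZT2 to ZT22. The 24 wild-type (WT) libraries form 4 series with the numbers 11, 12, 25 and 26, with 1 library of each series at each of 6 times. The 6 libraries of Bmal1-/- mice (BM) form 1 series with the number 5, with 1 library at each time. All livers were crosslinked with formaldehyde, their nuclei were digested with micrococcal nuclease, and mononucleosomes were pulled down with an antibody against H2A.Z.

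CLOCK and BMAL1 form a dimer that binds E-box elements and activates the clock genes, among them the repressors that later block it, so that its activity on liver chromatin rises and falls once a day. H2A.Z is a variant of histone H2A that is found in nucleosomes beside active promoters and enhancers. Micrococcal nuclease cuts the DNA between nucleosomes, so that a bound site in open chromatin commonly shows as a dip in nucleosome signal between a pair of flanking peaks. Without BMAL1 the dimer does not form.

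The signal was in units scaled by the authors, and its read depth is unknown. No pair of libraries held identical profiles. Whether any libraries share an animal is not in the labels, and p-values therefore reflect the spread between libraries, which may be technical. All BM libraries belong to 1 series, so each difference between BM and WT is also a difference between series. Comparing the BM series with single WT series, as is done below, does not separate an effect of genotype from one of series. The exact permutation tests of genotype shuffle single libraries and take no account of the series, so their p-values do not separate these effects either. With 1 mean per series, no genotype difference could pass the threshold in any measure. The values hold no measurement of the Bmal1 gene, and the knockout label was not checked.

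Peaks of the class were as wide as the rest of the list, but lay closer to other peaks. Their median width was 309 bp (quartiles 250 and 389 bp), and the median of all peaks was also 309 bp. Ranks in the list ran from the second to the last place, with a median of 1561.5. The class held 12 of the first 100 peaks and 45 of the first 500. The median gap to the nearest listed peak was 18456 bp, against 44181 bp for all peaks, 57811 bp for TSS peaks, 42191 bp for gene body peaks and 48190 bp for intergenic peaks beyond 10 kb. Another peak lay within 10 kb of 40.1% of the members, against 30.5% of all peaks. The nearest peak was in a gene body for 34.4% of the members, was of the same class for 94 of them, at a TSS for 60 (20.4%) and beyond 10 kb for 39 (13.3%). These values describe the list and were given no test.

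Several members sat in clusters. In mm9 the first member, second in the whole list, covers chr11:68908211-68908501. A gap of 10 bp separates it from another member at chr11:68908511-68908830, which is 319 bp wide. A further member of the first 5 lies downstream at chr11:68912161-68912611, and a gap of 801 bp separates it from a member at chr11:68911071-68911360. The other members among the first 5 stand at chr11:98644571-98645021 and chr6:55125901-55126330, with gaps of 5180 bp and 6471 bp to their nearest peaks. These 5 regions are intergenic by the authors' label, and they were not assigned to genes, because no annotation of mm9 was used here.

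A gap of 0 bp to another listed peak, which was not counted for all peaks, was found for 23 members. The first 3 of these in the order of the list lie at chr11:117739061-117739611, chr3:87942251-87942511 and chr5:125873301-125873621. The widest member, with 659 bp at chr7:29167111-29167770, contains a smaller member at chr7:29167181-29167401. The narrowest, with 40 bp at chr1:174240141-174240181, lies 10 bp from a member at chr1:174240191-174240600. The nearest peak to each of the 10 regions named by rule was therefore of the same class.

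The share of the class, 9.14% over the whole list, varied between chromosomes, which was not tested. The highest share was on chromosome 11, with 30 peaks or 12.0% of those listed there. The lowest was on chromosome 17, with 4 peaks (2.60%). The windows of 3 kb that the profiles average overlapped for 77 members (26.2%), against 630 of all peaks (19.6%). Of these members, 57 shared sequence with 1 other window and 20 with more, and 62 overlapped the window of another member. A listed peak stood within 1500 bp of 72 members (24.5%), which was not counted for all peaks. The averaged profile thus counts some stretches of chromatin more than once.

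In WT livers the averaged profile had a peak of H2A.Z on either side of the binding site and a dip at its centre. The mean of the 24 WT libraries was highest 200 bp to the left, at 31.6 units, and 170 bp to the right, at 30.6 units. Between them it fell to 20.5 units at 10 bp left of the centre, which is 0.659 of the shoulders. The distance between the shoulder maxima was 373 ± 20.6 bp (SD, n = 24), from 330 to 420 bp.

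In BM livers the shoulders stood at nearly the same distances with a smaller height and a shallower dip. The mean of the 6 BM libraries reached 19.4 units 200 bp to the left and 18.7 units 160 bp to the right. The lowest value between them was 15.2 units, at 10 bp right of the centre, or 0.797 of the shoulders. The shoulder distance was 400 ± 69.9 bp (SD, n = 6), from 330 to 530 bp, a range that includes that of the WT libraries.

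**Figure D1:**
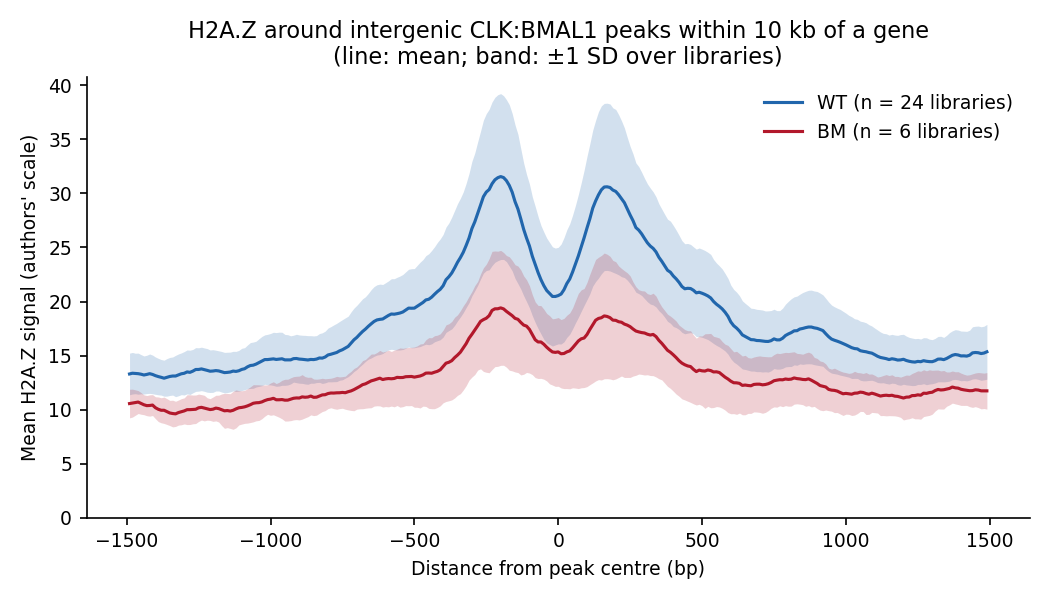
Mean H2A.Z signal in the authors' scaled units (vertical axis) against distance from the peak centre in bp (horizontal axis) over intergenic CLOCK:BMAL1 peaks within 10 kb of a gene, for 24 WT and 6 BM libraries with the spread between libraries. The WT profile has shoulders of 31.6 and 30.6 units around a dip of 20.5, and the BM profile shoulders of 19.4 and 18.7 units around a dip of 15.2.

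The profile was not symmetric. The outermost 25 positions of each side, 1250 to 1490 bp from the centre and here called the flank, averaged 13.3 ± 1.79 units on the left and 14.9 ± 2.21 on the right over the WT libraries (SD, n = 24). The right flank was the higher one in 24 of 24 WT libraries and in 6 of 6 BM libraries, where the sides averaged 10.1 ± 1.12 and 11.8 ± 1.64 (SD, n = 6). In WT the right flank was the higher one in 19 of 24 libraries at TSS peaks, 6 of 24 at gene body peaks and 13 of 24 at intergenic peaks beyond 10 kb. Whether the windows follow the strand of a neighbouring gene is not given in the sources used here.

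A further rise stood on the right side alone. At 830 to 930 bp right of the centre the WT signal averaged 17.5 ± 3.31 units, above the 16.5 ± 2.85 units at 650 to 750 bp, with a local maximum of 17.6 units at 870 bp. The farther band was the higher one in 21 of 24 WT libraries and 5 of 6 BM libraries. On the left the farther band was the higher one in 0 of 24 WT and 0 of 6 BM libraries. On the right in WT this held in 0 of 24 libraries at TSS peaks, 1 of 24 at gene body peaks and 0 of 24 at intergenic peaks beyond 10 kb. These bands were chosen after the profile was seen, so the counts are a description. Since the profile is a mean over all windows of the class, it does not show whether many members or few carry this rise.

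Loss of BMAL1 went with less H2A.Z over the whole window. The mean signal of the window ranged from 11.9 through a median of 18.5 to 24.1 units in WT. In BM it was 16.5, 11.7, 10.8, 15.3, 14.4 and 10.3 units from ZT2 to ZT22. The BM library was below all 4 WT libraries of its own time at 6 of 6 times, although the ranges over all times overlapped. The means were 18.8 ± 3.49 (SD, n = 24) and 13.2 ± 2.57 (SD, n = 6). The ratio of the geometric means of BM and WT was 0.703, a log2 difference of -0.51 (SE 0.13, two-sided exact permutation p = 0.000515, adjusted p = 0.00117 over 7 measures).

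The shoulders, averaged over 150 to 230 bp from the centre to the left and right, fell most. They ranged from 16.3 through 30.1 to 41.8 units in WT and from 12.4 through 19.4 to 25.4 in BM. Each BM value lay below all WT values of its time, at 6 of 6 times. WT averaged 30.5 ± 7.47 units (SD, n = 24) and BM averaged 18.7 ± 5.32 (SD, n = 6), and the ratio of geometric means was 0.610. The log2 difference was -0.71 (SE 0.19, exact permutation p = 0.000547, adjusted p = 0.00117).

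The flank, farthest from the binding site, was also lower. WT averaged 14.1 ± 1.97 units there (SD, n = 24) and BM averaged 10.9 ± 1.34 (SD, n = 6), and the BM library was below the 4 WT libraries at 6 of 6 times. The log2 difference was -0.36 (SE 0.08, exact permutation p = 0.00044, adjusted p = 0.00117). By distance, the difference in mean log2 signal between the genotypes was -0.50 within 100 bp of the centre and -0.68 from 100 to 300 bp. From 300 to 600 bp it was -0.59, and beyond 1200 bp it was -0.36. The loss was thus larger at the shoulders than at the site or far from it.

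The centre, the mean within 30 bp of the middle of the peak, averaged 20.8 ± 4.64 units over the WT libraries (SD, n = 24). It averaged 15.3 ± 3.19 over the BM libraries (SD, n = 6), and the ratio of geometric means was 0.741. The log2 difference of -0.43 passed the test over all libraries (SE 0.14, exact permutation p = 0.00837, adjusted p = 0.00976). It rested on the WT series compared. With WT series 11 and 12 alone, which share the first set of samples with the BM series, it was -0.23 (exact permutation adjusted p = 0.115), and without WT series 25 it was -0.32 (exact permutation adjusted p = 0.0529).

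Every position of the window was lower in BM by limma, fitted on the log2 signal at 1196 positions of 4 peak classes. At an adjusted p under 0.05, 100% of the positions of the class were lower, beside 94.5% of all positions tested. A share so near that of all classes is no result about this one. The difference was largest 190 bp right of the centre at -0.74 (SE 0.15, limma adjusted p = 0.000163). The lowest p was at 470 bp, where the difference was -0.62 (SE 0.12). It was smallest at 1350 bp, with -0.30 (SE 0.09, limma adjusted p = 0.00273). Neighbouring positions share nucleosomes and are not independent.

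With each library divided by its own flank, which removes the authors' scale factor, the loss remained around the shoulders. In BM 51.5% of the positions were lower and 3 positions were higher by limma, beside 67.6% lower and 1% higher among all positions tested. The called positions ran without a break from -710 to -90 bp and from 60 to 640 bp, with differences as low as -0.38 (SE 0.09) at 190 bp. At the centre the difference over flank was -0.06 (SE 0.06, limma adjusted p = 0.416), which does not show that the genotypes were alike there. Shorter runs lay at -1340 to -1200 bp and at 890 to 1020 bp. The 3 higher positions, at 1350 to 1370 bp, and those of the left run out from -1250 bp lie inside the flank used for the division.

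**Figure D2:**
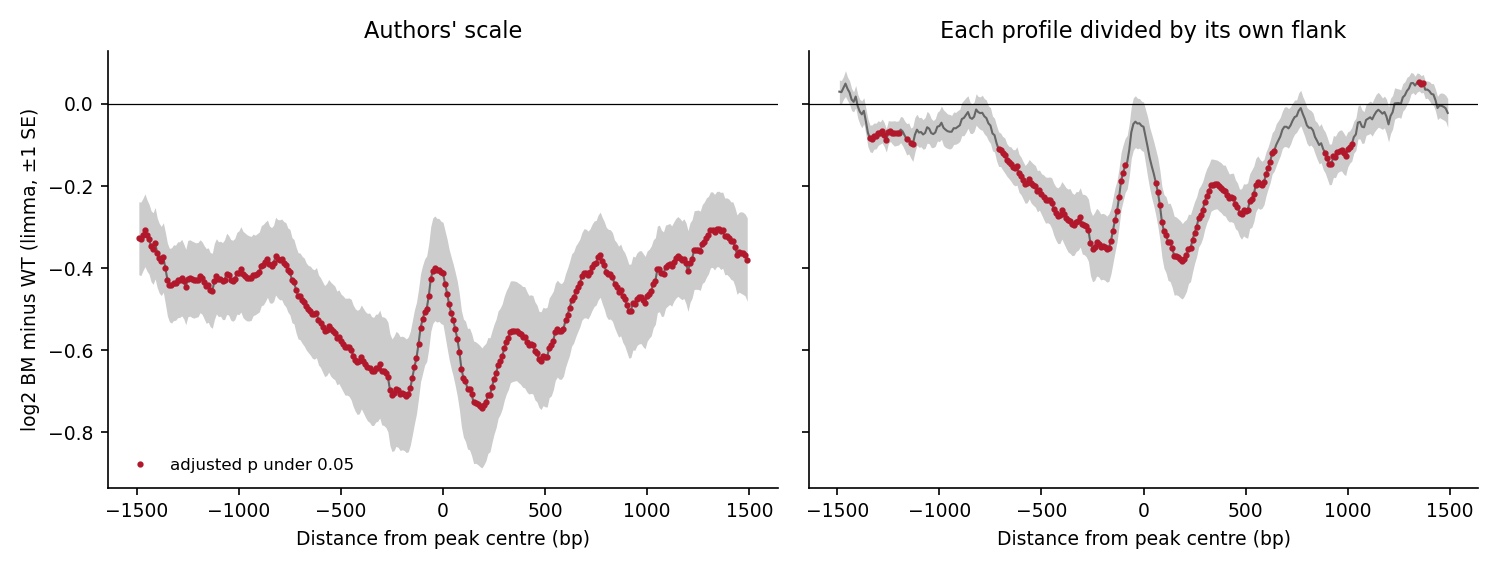
Log2 difference BM minus WT (vertical axis) at each position of the window against distance from the peak centre in bp (horizontal axis), for the log2 signal and for the log2 signal over flank, with a band of 1 SE either way and red points for an adjusted p under 0.05. The differences reach -0.74 and -0.38 at 190 bp, and over flank the centre stands at -0.06.

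The same was seen in the height of the shoulders over the flank, which no scale factor of a library can move. Shoulder over flank ranged from 1.56 through 2.14 to 2.61 in WT, and was 2.01, 1.72, 1.33, 1.83, 1.93 and 1.29 in BM from ZT2 to ZT22. At 4 of 6 times the value from the BM liver was under each WT value. The means were 2.14 ± 0.292 (SD, n = 24) and 1.68 ± 0.306 (SD, n = 6), a log2 difference of -0.35 (SE 0.12, exact permutation p = 0.00164, adjusted p = 0.00229). Centre over flank differed less, at 1.46 ± 0.159 for WT (SD, n = 24) beside 1.39 ± 0.149 for BM (SD, n = 6). Its log2 difference of -0.07 did not pass the test (SE 0.07, exact permutation p = 0.320).

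The dip at the binding site was shallower in BM. Its depth was measured as centre fill. Flank is subtracted from centre and from shoulder, and the first difference is divided by the second, so that a dip as deep as the flank gives 0 and no dip gives 1. Centre fill ranged from 0.188 through 0.402 to 0.590 in WT. In BM it was 0.465, 0.617, 0.490, 0.626, 0.538 and 0.838 from ZT2 to ZT22. The BM library was above all 4 WT libraries of its time at 5 of 6 times, the exception being ZT18, and the ranges over all times overlapped. WT averaged 0.406 ± 0.104 (SD, n = 24) and BM averaged 0.596 ± 0.136 (SD, n = 6). The difference of 0.190 passed the test (SE 0.0593, exact permutation p = 0.000669, adjusted p = 0.00117), and within the first set it was 0.216 (exact permutation adjusted p = 0.00830).

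Centre fill is a ratio to the height of the shoulders, which was itself lower in BM. The BM shoulders barely exceeded the flank at ZT10 (13.3 over 10.0 units) and ZT22 (12.4 over 9.62 units), so the divisor was small there. These libraries also had the lowest BM shoulder over flank in each other class. Without the BM library of ZT22, which had the highest centre fill, the difference was 0.141. Leaving out any 1 library kept the exact permutation adjusted p at or under 0.0134. With the shoulder over flank of each library as a covariate, an analysis added after the data were seen, the difference in centre fill was 0.168 (SE 0.0616, permutation adjusted p = 0.0117). This fit cannot separate the genotype from the small divisor. The covariate is made of the same shoulder and flank, and BM at ZT10 and ZT22 (1.33 and 1.29) lay below the lowest WT value of 1.56. Mean centre fill per series was 0.353, 0.406, 0.434 and 0.431 in WT series 11, 12, 25 and 26, all below the 0.596 of the BM series. With 1 value per series the exact permutation test cannot go below p = 0.2, and that was its value.

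Window signal, by contrast, differed between the WT sets as well. It averaged 16.8, 16.4, 22.2 and 19.6 units in WT series 11, 12, 25 and 26 and 13.2 units in the BM series. Against the first set alone the log2 difference was -0.35 for the window (exact permutation adjusted p = 0.00830), -0.50 for the shoulders and -0.25 for shoulder over flank (exact permutation adjusted p = 0.0206). These are smaller than the differences against all WT libraries, with the same direction.

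**Figure D3:**
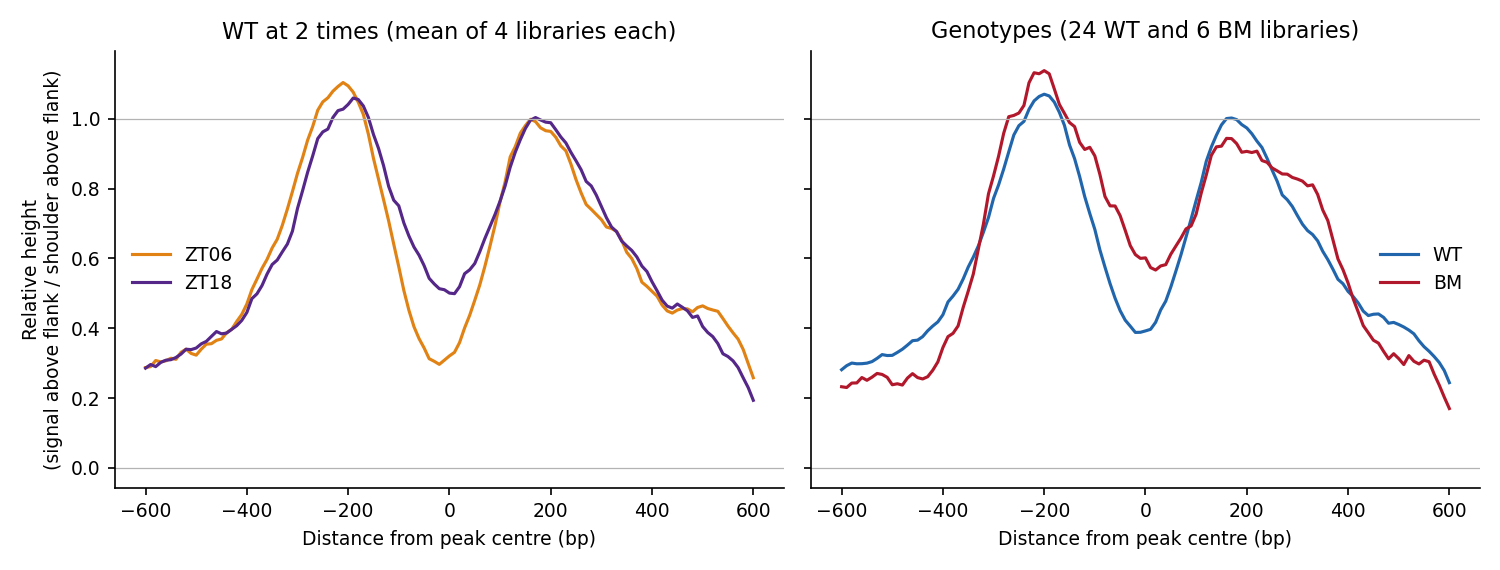
Height of the signal relative to flank and shoulder (vertical axis, 0 for the flank level and 1 for the shoulder level) against distance from the peak centre in bp (horizontal axis), in WT, in BM and in WT at ZT6 and ZT18. Within 30 bp of the centre WT stands at 0.406 and BM at 0.596.

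The change in relative height was measured in 7 bands of distance, which were chosen after the profiles were seen. Within 30 bp it is the centre fill given above. From 40 to 70 bp it was 0.507 in WT and 0.674 in BM, a difference of 0.167 (exact permutation p = 0.000232, adjusted p = 0.00163 over 7 bands). From 80 to 110 bp it was 0.696 and 0.790, a difference of 0.0941 (exact permutation adjusted p = 0.0104). From 120 to 140 bp, close to the shoulder, the difference did not pass (exact permutation adjusted p = 0.0939).

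Outside the shoulders the differences had no common sign. From 240 to 290 bp the relative height was 0.863 in WT and 0.918 in BM (exact permutation adjusted p = 0.0824). From 300 to 440 bp both genotypes stood at 0.555 (exact permutation p = 0.992). From 450 to 600 bp, where the WT profile falls towards the flank, the relative height was 0.345 in WT and 0.273 in BM, a difference of -0.0717 (exact permutation p = 0.00738, adjusted p = 0.0129). Of the 7 bands, the 3 within 110 bp were higher in BM and that from 450 to 600 bp was lower.

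The dip followed the time of day in WT. At ZT6 centre fill was 0.188 in series 11, 0.394 in series 12, 0.363 in series 25 and 0.382 in series 26. At ZT18 it was 0.464, 0.560, 0.458 and 0.590 in the same series. All libraries at ZT18 were above all libraries at ZT6, and series 11 had the lowest value of all at ZT6. The means were 0.355 ± 0.0355 at ZT2, 0.332 ± 0.0968 at ZT6, 0.315 ± 0.0830 at ZT10, 0.503 ± 0.0464 at ZT14, 0.518 ± 0.0668 at ZT18 and 0.413 ± 0.0863 at ZT22 (SD, n = 4 each). The dip was thus deepest during the light phase and shallowest at ZT14 and ZT18, in the dark phase.

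A cosine wave with a period of 24 h, fitted to centre fill over the 24 WT libraries, had an amplitude of 0.104 (SE 0.0217) with its maximum at ZT17.5. It passed a permutation test of the time labels (p = 0.00051, adjusted p = 0.00357 over 7 measures). The amplitude was 0.162, 0.0816, 0.0629 and 0.128 in series 11, 12, 25 and 26, with maxima at ZT18.8, ZT16.0, ZT16.6 and ZT17.1. Within a set it was 0.115 in the first (permutation p = 0.0369, adjusted p = 0.259) and 0.0952 in the second (permutation p = 0.0113, adjusted p = 0.0790), so that neither set passed alone. The rhythms of the sets differed by 0.0316 (exact permutation p = 0.787).

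The single contrast of opposite times was ZT6 minus ZT18, at -0.186 (SE 0.0588, exact permutation p = 0.0286, the smallest that 4 against 4 can give). These times were picked because earlier results of the same data set them apart, so this p is no independent support for the rhythm. With the series as a block the exact sign permutation gave p = 0.125, the smallest that 4 pairs allow. The contrast also depended on 1 library. Without the series 11 library at ZT6 it was -0.138 (exact permutation p = 0.0571). In the bands beside the centre the rhythm had an amplitude of 0.0906 from 40 to 70 bp (permutation adjusted p = 0.00091) and 0.0535 from 80 to 110 bp (permutation adjusted p = 0.0137). From 450 to 600 bp no rhythm passed (permutation adjusted p = 0.743).

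**Figure D4:**
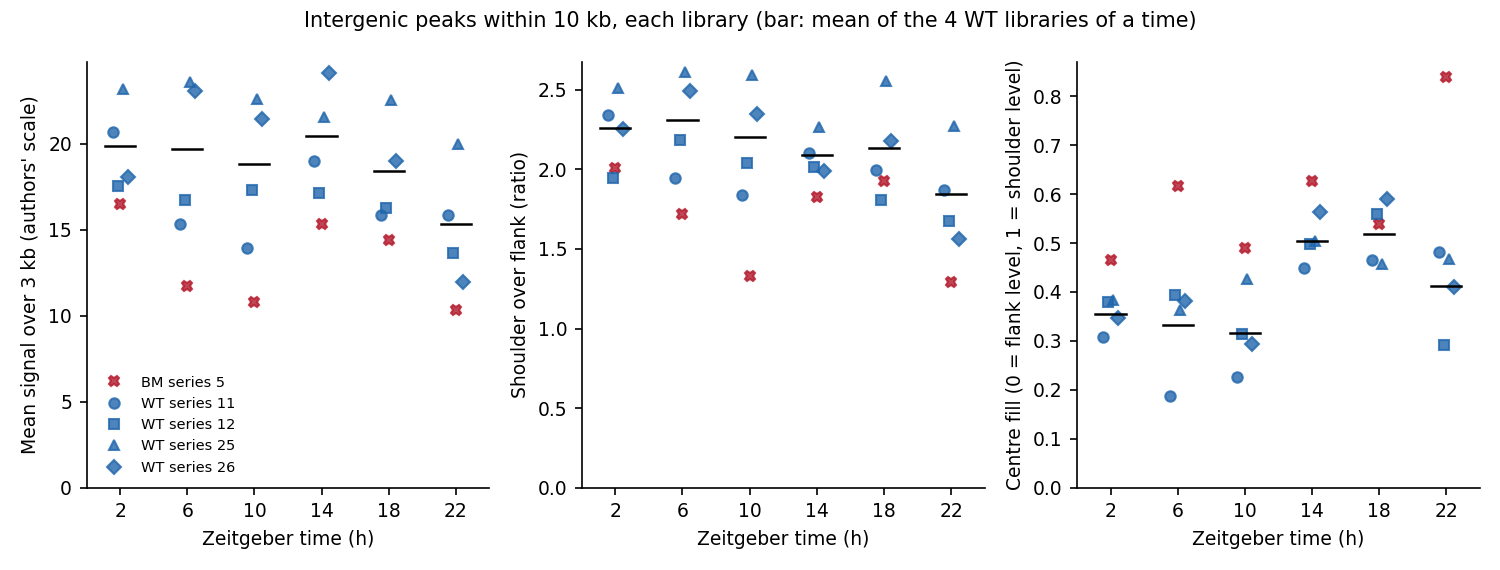
Measures of the H2A.Z profile over intergenic CLOCK:BMAL1 peaks within 10 kb of a gene (vertical axes) against zeitgeber time in hours (horizontal axes), with 1 point per library for the 4 WT series and the BM series and bars for the mean of the WT libraries of a time. WT centre fill averages 0.332 at ZT6 and 0.518 at ZT18, and the BM points lie above the WT points at 5 of 6 times.

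The amount of H2A.Z showed no rhythm that passed the test in WT. The amplitude was 0.12 for the log2 window signal (SE 0.08, permutation p = 0.344), 0.17 for the shoulders (SE 0.11, permutation p = 0.284) and 0.11 for shoulder over flank (SE 0.06, permutation p = 0.171, adjusted p = 0.463). Nor did the centre pass, at 0.12 (SE 0.10, permutation p = 0.488), or centre over flank, at 0.07 (SE 0.05, permutation p = 0.371). Of the 7 measures, the ratio centre fill alone passed. WT shoulder over flank averaged 2.31 ± 0.301 at ZT6 and 1.84 ± 0.313 at ZT22 (SD, n = 4 each), with overlapping values. With shoulder over flank as a covariate the amplitude of centre fill was 0.120 (SE 0.0214, permutation p = 7e-05).

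By position, the calls depended on whether the series entered the fit. Without it, 0 positions of the class followed the time of day by limma on the log2 signal over flank, beside 0% of all positions tested. With the series as a block, 22 positions of the class (7.36%) passed at an adjusted p under 0.05, beside 24% of all positions. The values that follow are without the block. At an unadjusted p under 0.05 there were 22 positions (7.36%), against 29.2% of all positions. The lowest p was at 810 bp, with an amplitude of 0.09 (limma adjusted p = 0.153). The largest amplitude was 0.14, at -240 bp in the left shoulder, with its maximum at ZT7.6 (limma adjusted p = 0.169).

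In BM the 6 libraries gave no rhythm that passed, at 1 library per time. The amplitude of centre fill was 0.0798 (SE 0.0900) with a maximum at ZT20.8 (exact permutation p = 0.8, smallest possible 0.0167). The WT and BM rhythms differed by 0.0821 (exact permutation p = 0.545), so that a loss of the rhythm in BM was not shown. For window signal the BM amplitude was 0.07 (exact permutation p = 0.95), and the rhythms differed by 0.18 (exact permutation p = 0.743). Leaving out single BM libraries moved these values. The BM amplitude of the window ran from 0.02 without ZT18 to 0.30 without ZT22, and the difference of the rhythms from 0.07 without ZT10 to 0.42 without ZT22. The BM amplitude of centre fill ran from 0.0422 without ZT22 to 0.146 without ZT18, and the difference of its rhythms from 0.0696 without ZT6 to 0.181 without ZT2.

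Against the other classes of CLOCK:BMAL1 peaks the class stood out by a high flank and by shoulders that rose little above it. The WT shoulder itself, at 30.5 units, lay between the 23.3 units of gene body peaks and the 32.8 units of peaks beyond 10 kb. Its WT flank of 14.1 units compares with 11.6 units at TSS peaks, 9.26 at gene body peaks and 11.7 at intergenic peaks beyond 10 kb. Within libraries the flank was above that of these classes by log2 differences of 0.28, 0.60 and 0.26 (permutation p = 1e-05 each, the smallest that the draws can give). This comparison was added after the data were seen. In BM the log2 differences were 0.16, 0.38 and 0.24 (exact permutation p = 0.0313 each, the smallest possible). With a flank of 50 positions on each side the difference from TSS peaks in BM was 0.00398 (exact permutation p = 0.906).

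The shoulders rose less far above that flank than in any of the other 3 classes. Shoulder over flank was 2.14 in WT, against 4.36 at TSS peaks, 2.50 at gene body peaks and 2.76 at intergenic peaks beyond 10 kb. The log2 differences within libraries were -1.03, -0.22 and -0.36 in WT and -1.06, -0.10 and -0.32 in BM. All 6 passed (permutation adjusted p = 1.29e-05 in WT and exact permutation adjusted p = 0.0469 in BM). Before adjustment each BM contrast had an exact permutation p of 0.0313, the smallest that 6 libraries allow. With any 1 BM library left out none of the BM contrasts passed (exact permutation adjusted p = 0.0804 to 0.0938).

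Window signal placed the class between TSS and gene body peaks. In WT it was 0.55 below TSS peaks (log2 difference -0.55, SE 0.02), 0.48 above gene body peaks (SE 0.01) and 0.03 above intergenic peaks beyond 10 kb (SE 0.01, permutation p = 0.00115). The order depends on the flank. After division of each profile by its flank, the class was below gene body peaks by a log2 difference of -0.12 and below intergenic peaks beyond 10 kb by -0.23 in WT. Over the central 1 kb alone the difference from peaks beyond 10 kb was -0.08 in WT.

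**Figure D5:**
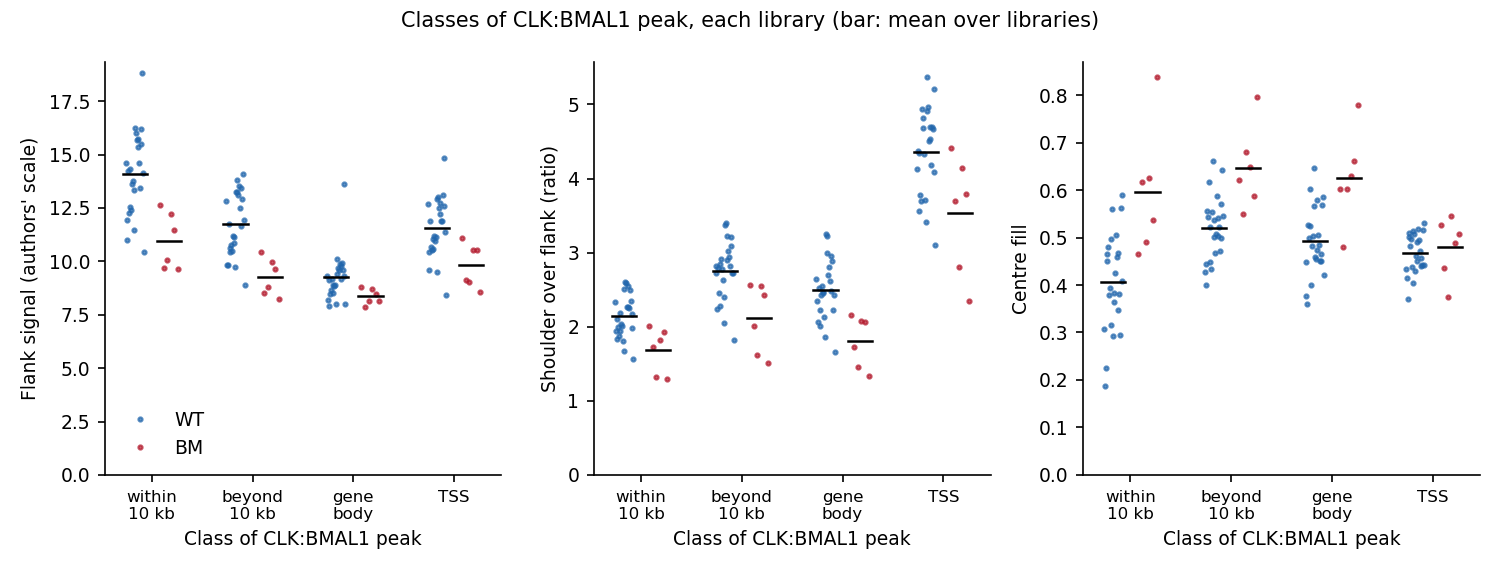
H2A.Z measures by class of CLOCK:BMAL1 peak (vertical axes, units as labelled) with 1 point per library for WT and BM and bars for the means. Intergenic peaks within 10 kb have the highest WT flank, 14.1 units, and the lowest WT shoulder over flank, 2.14, of the 4 classes.

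Centre fill in WT was lower in the class than in the others, by -0.0613 against TSS peaks (permutation p = 0.00019), -0.0873 against gene body peaks and -0.115 against intergenic peaks beyond 10 kb. The direction against TSS peaks and the other calls rest on the subtraction of the flank. As centre over shoulder without that subtraction, the difference from TSS peaks was 0.0970, and those from gene body peaks and from peaks beyond 10 kb were -0.0120 and -0.00856, with permutation adjusted p = 0.0762 and 0.158.

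The change of the dip without BMAL1 was larger than at TSS peaks. TSS peaks had a mean of 0.467 in WT livers and 0.480 in BM livers, beside 0.406 and 0.596 in the class. The genotype differences differed by 0.177 (SE 0.0560, exact permutation p = 0.00017, adjusted p = 0.00135 over 9 comparisons). Gene body peaks (0.493 and 0.626) and intergenic peaks beyond 10 kb (0.521 and 0.647) also had higher values in BM. The class differed from them by 0.0570 (exact permutation p = 0.127) and 0.0634 (exact permutation p = 0.0613, adjusted p = 0.138), which did not pass. The second of these passed without the BM library of ZT2 or of ZT10, at 0.0844 and 0.0911 (exact permutation adjusted p = 0.0441 and 0.0225).

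Window signal fell further in the class than at gene body peaks, by a log2 difference of -0.15 (exact permutation p = 0.0003, adjusted p = 0.00135). Over flank this was 0.07 the other way (exact permutation adjusted p = 0.00648), and shoulder over flank fell less than at gene body peaks, by 0.12 (exact permutation adjusted p = 0.00313). Against TSS peaks the window difference was -0.04 (SE 0.05, exact permutation p = 0.354) and over flank 0.08 the other way (exact permutation adjusted p = 0.143), and against peaks beyond 10 kb it was 0.02 (exact permutation p = 0.185).

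The rhythm of the dip was also unlike that at TSS peaks. The difference in centre fill between the class and TSS peaks had a WT amplitude of 0.0656 (SE 0.0154) with its maximum at ZT17.5 (permutation p = 0.00144, adjusted p = 0.00432 over 3 classes). It did not pass in either set alone, with 0.0701 in the first (permutation adjusted p = 0.183) and 0.0612 in the second (permutation adjusted p = 0.0551). Against gene body peaks the amplitude of the difference was 0.0367 (permutation p = 0.193), and against peaks beyond 10 kb it was 0.0354 (permutation p = 0.140). Without WT series 12 the first of these was 0.0513 (permutation adjusted p = 0.0184).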

How the data were processed

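The authors used CASAVA 1.7, Bowtie and build mm9, per the submitters' processing notes. Not given in the sources used here are the Bowtie version, the peak caller and the scaling of the signal. In the deposited table, signal is the authors' mean coverage per peak set and library at 299 positions. A step of 10 bp was inferred from windows of 3 kb. The list holds 3217 peaks, 294 of them in the class, while the row labels of the signal table give 3216 peaks and so leave 293 in the solved profile. Which peak is missing is not stated. The solved profile carries a rounding error of at most 0.00105 units. Read depth is unknown, so no precision could be derived from it.

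The labels put the samples into 2 sets by their source names: WT series 11 and 12 with BM series 5, and WT series 25 and 26. BM series 8 has 6 samples in the labels, not analysed here. The members, measures and lists were chosen with earlier results of these data known.

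Per library, window signal, flank, shoulder and centre (as log2), shoulder over flank, centre over flank (as log2) and centre fill were computed. Genotypes were compared by two-sided exact permutation over 593775 assignments, rhythms by a 24 h cosinor with 100000 permutations of time in WT and 720 orders in BM, and classes by sign permutation within libraries. Positions were fitted with limma 3.58.1 in R 4.3.3. Benjamini-Hochberg adjustment covered 7 measures, 9 class comparisons, 3 class rhythms or 1196 positions, with a threshold of 0.05. numpy 2.4.6, scipy 1.17.1, pandas 2.3.3 and matplotlib 3.10.9 were used. The tests were checked on simulated data drawn independently for each library and position. That check does not cover libraries of a series that deviate together, or positions that share nucleosomes. Regions were named by rule: the first 5 members of the list, the 3 nearest to another peak (ties in list order), the widest and the narrowest. Positions named are maxima, minima and those of lowest p. A gene-based part of the rule and sequences need an mm9 genome and were not run. Alternatives were other flanks and windows, sets, series left out, series as a block, and linear or flank-divided signal. The enrichment covariate, the flank between classes, the 7 bands, the largest rhythm amplitude by position and the bands of the further rise were added after the data were seen.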

Additional observations from a re-analysis of the deposited data

Results flagged for a closer look

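Centre fill of WT series 11 at ZT6 was 0.188, while the other 3 WT libraries at that time lay between 0.363 and 0.394. It stood apart by its gap to the nearest library relative to the range of the 4. Of 42 groups of 4 WT libraries examined this way, 1 library stood apart, and chance gives about 1 in 20 groups. The rhythm of centre fill in WT without this library had an amplitude of 0.0933.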

How the results depend on the processing

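Of 1528 recalculations that left out 1 library or series, 1518 were counted as unchanged, and 373 of 412 other alternatives were. The 1518 include class contrasts in BM that crossed the threshold. With any 1 BM library left out, those of window signal, shoulder over flank and flank no longer passed (exact sign permutation adjusted p = 0.0625 to 0.0938). Deviations of WT libraries with the same replicate number tended to go together, but not in all pairs (38 of 60 had a correlation over 0.1). The median correlation was 0.344, against -0.123 for other numbers, and 12 of 24 libraries were closest to their own number. The main tests of rhythm and genotype do not take the series into account. With the series as a block, ZT6 minus ZT18 of centre fill remained -0.186 (exact sign permutation p = 0.125, the smallest that 4 pairs allow). By limma 22 positions (7.36%) then followed the time of day, beside 24% of all positions, and no other call changed. In the cases below the cause was not tested unless the test itself could not reach the threshold.

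Without 1 library each, ZT6 minus ZT18 ran from -0.207 to -0.138, centre fill against peaks beyond 10 kb between genotypes from 0.0398 to 0.0911, and rhythmic positions from 0 to 2 (2 without WT series 11 at ZT10). Without series 11, 12, 25 or 26, ZT6 minus ZT18 was -0.156, -0.193, -0.217 and -0.179. BM minus WT of the centre was -0.32 without series 25, and the rhythm against gene body peaks was 0.0513 without series 12. With 1 mean per series BM minus WT was -0.51, -0.36, -0.71, -0.43, -0.35 and 0.190 for window, flank, shoulder, centre, shoulder over flank and centre fill, where no p under 0.2 is possible.

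In the first set, BM minus WT was -0.23 for the centre and 0.0159 for centre over flank, shoulder over flank against TSS peaks between genotypes was 0.00561, the rhythm of centre fill was 0.115, that against TSS peaks 0.0701, and ZT6 minus ZT18 -0.221. In the second these last 3 were 0.0952, 0.0612 and -0.152, and WT window signal against peaks beyond 10 kb was 0.0201. With a flank of 50 positions, the BM flank against TSS peaks was 0.00398 and centre fill against peaks beyond 10 kb between genotypes 0.0764.

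Divided by its own flank, window signal in WT and BM was -0.118 and -0.0514 against gene body peaks and -0.231 and -0.183 against peaks beyond 10 kb, and between genotypes 0.0833 against TSS and 0.0663 against gene body peaks. Over flank, 51.5% of positions were lower and 1.00% higher by limma, against 100% and 0%. Over the central 1 kb, BM window signal was -0.88 against TSS and 0.30 against gene body peaks, and against peaks beyond 10 kb it was -0.0835 in WT and -0.0355 in BM. On linear signal the genotype difference against TSS peaks was 1.86 units. Without subtraction of the flank, ZT6 minus ZT18 was -0.118, centre over shoulder against TSS peaks 0.0970 in WT and 0.200 in BM, against gene body peaks -0.0120 in WT, and against peaks beyond 10 kb -0.00856 in WT and 0.0205 in BM.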
